A study of Danio rerio with 3 samples.

Results

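Blood progenitors with high levels of mitotic transcripts were compared with blood progenitors with low levels, among single cells sorted from the trunk of zebrafish embryos. A mitotic score was computed in each cell as the summed CPM (counts per 1000000 counts) of 6 genes, top2a, mki67, cdk1, aurkb, cdc20 and kpna2. The cells compared were chosen by this score. Each of the 2 libraries was cut into 3 groups of equal size by score, and the high group was set against the low group over all other genes. Cells entered with 500 or more detected genes, 20000 or more counts, no count of the endothelial gene cdh5 and less than 500 CPM of the neutrophil gene npsn. These limits kept 63 of the 93 cells in the count table, 39 of 56 in the library DP 1 and 24 of 37 in DP 2. Each group held 13 cells of DP 1 and 8 cells of DP 2.

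The embryos were Tg(spi2:Gal4;UAS:GFP/kdrl:mCherry) fish at 36 hours post fertilization. They carried GFP under the control of the blood and myeloid gene spi2, through Gal4, and mCherry under that of the endothelial gene kdrl. The DP cells were sorted one by one as positive for both reporters and read out by STRT-seq, which tags the transcripts of each cell in its own well. The cell table places them in the aorta-gonad-mesonephros region, where blood stem cells arise from hemogenic endothelium. Within a library the high and low cells share genotype, stage and sort, and no treatment is named in the labels. The labels call the double-positive cells HECs, and the series title speaks of hemogenic endothelium, while the cells kept here had no count of cdh5. A reporter protein can outlast its transcript, so the sort does not fix what a cell transcribes. The SP library, sorted as negative for kdrl, was not analysed here.

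Cyclin-dependent kinase 1 with its B-type cyclin drives the entry into mitosis. Aurora and polo-like kinases then build the spindle, condensins compact the chromosomes, and the checkpoint at the kinetochores holds back the anaphase-promoting complex until every chromosome is attached. Many of these genes are transcribed late in the cell cycle, so their messages are used as marks of cells in G2 and mitosis. Blood progenitors expand by division before they mature.

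The score itself set the groups and is given as a description. In DP 1 the low group scored between 48.0 and 398 CPM with a median of 194. The middle group of DP 1 had a median of 848 CPM, and its high group lay between 1488 and 5273 CPM with a median of 2830. In DP 2 the low group lay between 27.0 and 167 CPM with a median of 46.9. The middle group of DP 2 had a median of 300 CPM, and its high group ran from 806 to 2071 CPM with a median of 992. The groups were cut within each library, and the high group of DP 2 overlapped the middle group of DP 1. The cuts fell in a continuous range, since the highest middle cell and the lowest high cell of DP 1 scored 1475 and 1488 CPM. Those neighbours in DP 2 scored 740 and 806 CPM. The lower cut fell between 398 and 515 CPM in DP 1 and between 167 and 179 CPM in DP 2. The limit on npsn fell in a wide gap, with 274 CPM in the highest cell kept and 2666 CPM in the lowest cell left out. The limit on counts did not, with 20333 counts in the shallowest cell kept and 19947 in the deepest one left out.

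**Figure D1:**
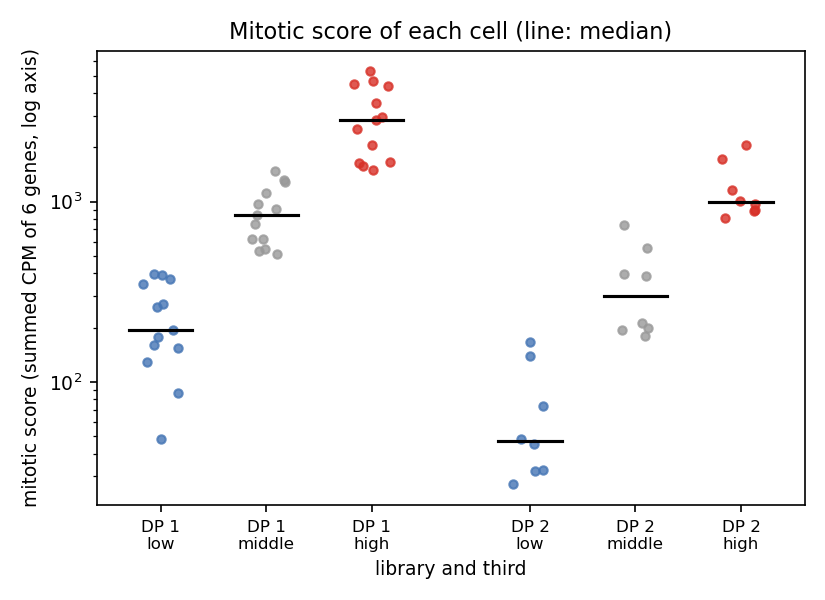
The mitotic score of each cell, as the summed CPM of 6 genes on a log axis, by library and group, with a line at the median. The medians run from 194 through 848 to 2830 CPM in DP 1 and from 46.9 through 300 to 992 CPM in DP 2.

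Of the scoring genes, top2a, the topoisomerase that untangles sister chromatids, was at 1.68, 60.3 and 328 CPM in the low, middle and high groups of DP 1. It was at 3.74, 3.69 and 100.1 CPM in those of DP 2. The proliferation marker mki67 was at 92.5, 225 and 633 CPM in DP 1 and at 9.36, 99.5 and 322 CPM in DP 2. These are levels in the summed counts of all cells of a group. In DP 2 top2a thus stood apart only in the high group, where 5 of 8 cells had a count, while mki67 was already higher in the middle group. Of these, 1 cell held 1086 CPM of top2a and the next 191 CPM. The cell with 1086 CPM had no count of cdk1, aurkb, cdc20 or kpna2. The import receptor kpna2, which carries proteins into the nucleus and is also used outside mitosis, was at 124, 331 and 1489 CPM in DP 1 and at 37.4, 128 and 237 CPM in DP 2. It made up the largest part of the summed counts of the 6 genes in the DP 1 high group, with 3959 counts. Per cell, the median of cdk1 was 0 CPM in the low and 234 CPM in the high group of DP 1. That of aurkb was 8.09 and 335 CPM, and that of cdc20 was 0 CPM in both. Over both libraries cdc20 had 3 counts in the low and 105 in the high groups.

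Median depth per cell was similar between the groups compared in DP 1, with 123665 counts in the low and 123677 in the high group. In DP 2 these medians were 54963 and 69328 counts. The sums were deeper in the high groups. Over the tested genes they held 1739604 counts (low) and 2591868 (high) in DP 1, and 523279 and 857038 in DP 2. Over all 63 cells totals ran from 20333 to 903548 counts. Across cells, the rank correlation of the score with the total count was 0.08 in DP 1 (39 cells) and 0.10 in DP 2 (24 cells), where score and total share a library. Low cells of DP 1 had a median of 3266 detected genes and high cells one of 3554, and in DP 2 these were 2448 and 3178. After each cell was thinned to 20000 counts these medians were 2258 and 2569 in DP 1 and 1886 and 2098 in DP 2. The deepest cell of each group gave 20.5% (DP 1 low), 34.0% (DP 1 high), 23.0% (DP 2 low) and 38.4% (DP 2 high) of the summed counts. The libraries shared 14 well names among their kept cells, and 0 cells had the same counts as another.

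The progenitor label was checked against its markers. A count of myb, a transcription factor needed by definitive blood stem cells, was found in 57 of the 63 cells (90.5%, exact 95% interval 80.4 to 96.4). The sort gene spi2 was found in 55 cells and kdrl in 20 cells. Of the hemogenic regulators, runx1 was found in 7 cells and gata2b in 6, while ikzf1 was found in 52. The myeloid genes lyz, npsn, spi1b and mpx had a count in 60, 50, 35 and 20 cells. Most cells thus carried myb, but the markers do not separate stem cells from other progenitors or from myeloid cells, and in the low group of DP 2 most cells also bore signs of another identity, given next. These intervals cover counting error only. Free RNA can add counts of abundant genes to cells that do not make them, and it was not measured here. The skeletal muscle list reached 167 to 903 CPM in every DP 2 cell and 0 to 297 CPM in DP 1. The source of these counts was not tested.

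Cells with signs of another identity were unevenly spread over the groups, and this bears on every comparison below. In the DP 2 low group, 6 of 8 cells lacked myb, had 5000 CPM or more of the neutrophil gene lyz, or had 1000 CPM or more of the endothelial or the neural list. The counterpart numbers were 3 of 13 in the low and 2 of 13 in the high group of DP 1, and 0 of 8 in the high group of DP 2. Without these cells 49 were left, and they were split into groups again. The limits were set after the data were seen. They do not establish another identity. A myb count can be missed for lack of depth, since with thinned cells myb was found in 53 of the 63 cells, against 57 before. The 2 cells left out of the DP 1 middle group lacked myb and met no other limit. All cells were sorted for the kdrl reporter, so a high endothelial list may go with the sort. The limits rest on myb, lyz and the endothelial and neural lists, so changes in these follow in part from the choice of cells. This split left 15 cells in the low and 15 in the high groups. Of these, 12 of the low and all 15 of the high cells were in the same groups of the first split. Only 2 of the first low cells of DP 2 were left, so its new low group took in former middle cells. The splits thus differ by more than the cells left out. List counts of this split are given beside those of all 63 cells, with the values of some single genes. In that split 22.3% of the 8410 genes with 30 counts were higher and 16.5% lower in both libraries.

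Raw counts were summed per library and group, and the high and low sums were tested with edgeR's quasi-likelihood test with the library as a block. Of 6117 genes tested, 0 were called higher (0.0%) and 0 lower (0.0%) in the high group at a Benjamini-Hochberg adjusted p under 0.05. An unadjusted p under 0.05 was reached by 259 genes higher (4.23%) and 282 genes lower (4.61%), and the lowest adjusted p was 0.552. With 2 libraries and a block the fit has 1 residual degree of freedom. Whether DP 1 and DP 2 stem from separate pools of embryos is not in the labels, so a p measures only how these libraries vary, and that variation may be technical. The older form of the quasi-likelihood test called 9 genes higher (0.147%) and 13 lower (0.213%), and DESeq2 called 10 higher (0.231%) and 17 lower (0.392%). These tests had 20 genes in common. The differences below are therefore given as levels in each library, with standard errors from the edgeR fit, and none of them passed the adjusted threshold in that fit.

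Genes of mitosis outside the score were more often higher in both libraries than all genes were, by the counts that follow. Of 140 genes on 5 lists of mitotic machinery, 126 are in the table and 111 had 30 or more counts over all 63 cells. This filter does not use the group labels, but it is not neutral, since the high sums were deeper. A gene can pass it with no low count, as did kif23 (0 low and 151 high counts) and numa1 (0 and 93). Outside these lists a gene can also pass with no high count, as did ctdsp2 (76 low and 0 high counts). Of the 111, 77 were higher in the high group in both libraries and 3 were lower in both. Over all 8410 genes with 30 counts, 2038 were higher in both (24.2%) and 1751 were lower in both (20.8%). At least 2-fold higher in both libraries, on the log2(CPM + 5) scale, were 34 of the 111 mitosis genes and 403 of all genes (4.79%). At least 2-fold lower in both were 0 of the 111 and 364 of all genes (4.33%). The median log2 difference over the 111 genes was 1.12 in DP 1 and 0.94 in DP 2, against 0.06 and 0.00 over all genes. Without the cells of another identity, 59 of the 111 were higher in both (22.3% of all genes) and 7 lower in both (16.5% of all genes). In that split 34 of the 111, and 513 of all 8410 genes, were 2-fold higher in both. Without the deepest cell of each sum, 71 were higher in both (24.6% of all genes) and 6 lower in both (18.3% of all genes). With each cell thinned to 20000 counts, 67 were higher (19.3% of all genes) and 3 lower (15.1% of all genes). Among cells without a kdrl count 52 were higher (21.4% of all genes) and 3 lower (13.8% of all genes). These 52 were the lowest number higher in these settings.

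**Figure D2:**
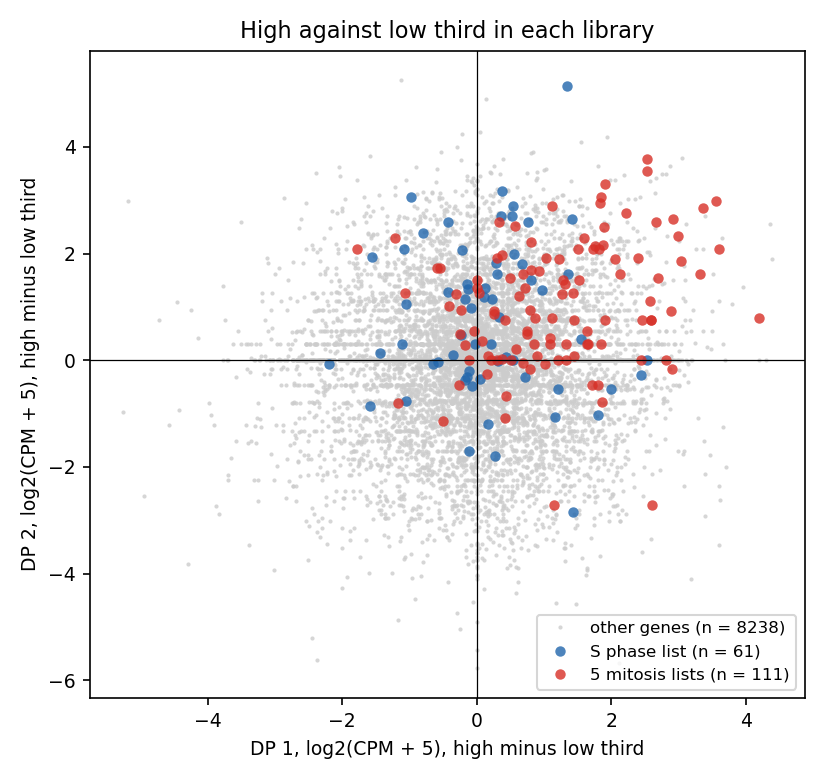
Difference between the high and the low group for 8410 genes, with DP 1 on the x axis and DP 2 on the y axis, both as log2(CPM + 5), high minus low. Of the 111 genes of the mitosis lists 77 lie in the upper right quadrant and 3 in the lower left one, against 21 and 10 of the 61 S phase genes.

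The difference was visible cell by cell. Summed over the 5 mitosis lists, which leave out the scoring genes, the low group of DP 1 held between 1586 and 7811 CPM per cell with a median of 2361. The high group of DP 1 held between 4152 and 11802 CPM with a median of 6897. In DP 2 the low group held 464 to 3133 CPM with a median of 837, and the high group 1146 to 4318 CPM with a median of 3016. The high cell of DP 2 with the lowest sum, 1146 CPM, had the highest score of that library, 2071 CPM. The ranges of the high and low cells overlapped in both libraries, and the middle groups lay between them, with medians of 3890 and 1816 CPM. The rank correlation of this sum with the score was 0.75 over 39 cells in DP 1 and 0.63 over 24 cells in DP 2. Both measures come from the same libraries and depths.

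Mitotic cyclins and kinases come first. Of 18 members with 30 counts, 12 were higher in both libraries, 1 was lower in both and 6 were 2-fold higher in both. These counts were 12, 1 and 7 without the cells of another identity. The polo-like kinase plk1, which triggers mitotic entry and centrosome maturation, was at 14.6, 161 and 108 CPM in the low, middle and high groups of DP 1. It was at 1.87, 18.4 and 74.8 CPM in those of DP 2. In DP 1 its level in the middle group was thus above that in the high group. Aurora A (aurka), the kinase of the spindle poles, was at 4.49, 44.6 and 106 CPM in DP 1 and at 0, 4.91 and 34.5 CPM in DP 2. Only 1 of the 21 low cells had an aurka count, against 8 of 13 high cells in DP 1 and 2 of 8 in DP 2. The fitted log2 difference was 3.12 ± 0.65 (SE, 2 libraries) for plk1 (edgeR unadjusted p = 0.00751) and 4.63 ± 0.85 for aurka (edgeR unadjusted p = 0.00961). cks2, the small subunit that helps cyclin-dependent kinases bind substrates, had 3 counts in the low groups and 139 in the high groups, a ratio of 30.4 with a counting interval of 10.2 to 149. The centriole kinase plk4 had 2 and 59 counts, a ratio of 19.4 (5.13 to 164).

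The cyclins themselves were less uniform, and they were named for their role. Cyclin A2 (ccna2), which acts from S phase to early mitosis, was at 28.6, 149 and 117 CPM in DP 1 and at 5.61, 15.97 and 84.0 CPM in DP 2. Cyclin B1 (ccnb1), the partner of cdk1, was at 77.9, 130 and 189 CPM in DP 1 and at 1.87, 8.60 and 20.7 CPM in DP 2. In the DP 2 high group ccnb1 was found in 3 of 8 cells and ccna2 in 7 of 8. The fitted differences were 2.28 ± 0.60 for ccna2 and 1.33 ± 0.51 for ccnb1.

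Kinesins and spindle genes were higher in both libraries for 22 of 28 members and lower in both for 0, and 12 were 2-fold higher in both. Leaving out the cells of another identity, 13 were higher and 0 lower in both, and among cells without a kdrl count 15 and 0. The median log2 difference over all 63 cells was 1.69 in DP 1 and 1.02 in DP 2. tpx2, which activates Aurora A on spindle microtubules, was at 77.4, 204 and 302 CPM in DP 1 and at 11.2, 61.4 and 86.3 CPM in DP 2. It was found in 11 of 13 high cells of DP 1 and in 6 of 8 of DP 2, against 6 of 13 and 3 of 8 low cells. tacc3, a stabiliser of kinetochore fibres, was at 5.05, 20.5 and 70.7 CPM in DP 1 and at 0, 41.8 and 26.5 CPM in DP 2. The fitted differences were 2.07 ± 0.48 for tpx2 and 3.90 ± 0.77 for tacc3.

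Genes of cytokinesis and chromosome separation follow, and 3 of them were picked for their 0 low counts. The motor subunit kif23, which bundles the midzone where the cell is cut, had 0 counts in both low groups and 151 in the high groups. Against a floor of 3 counts over the low groups this is at least 33.1-fold higher. It was found in 7 of 13 high cells of DP 1 and in 3 of 8 of DP 2. Its level was 14.4 CPM in the middle group of DP 1 and 0 in that of DP 2. The abscission gene cep55l had 2 and 158 counts, a ratio of 51.9 with a counting interval of 14.1 to 432. Of the listed genes with 0 low counts, the separase gene espl1, which frees sister chromatids at anaphase, had 63 counts in the high groups, at least 13.8-fold. The spindle pole gene numa1 had 93, at least 20.4-fold, and the midzone gene prc1b had 71, at least 15.6-fold. These 3 genes were chosen after their values were seen, so their 0 low counts follow from the choice. prc1a, on the same list as prc1b, had 3 low and 10 high counts, a ratio of 2.19 (0.564 to 12.4).

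**Figure D3:**
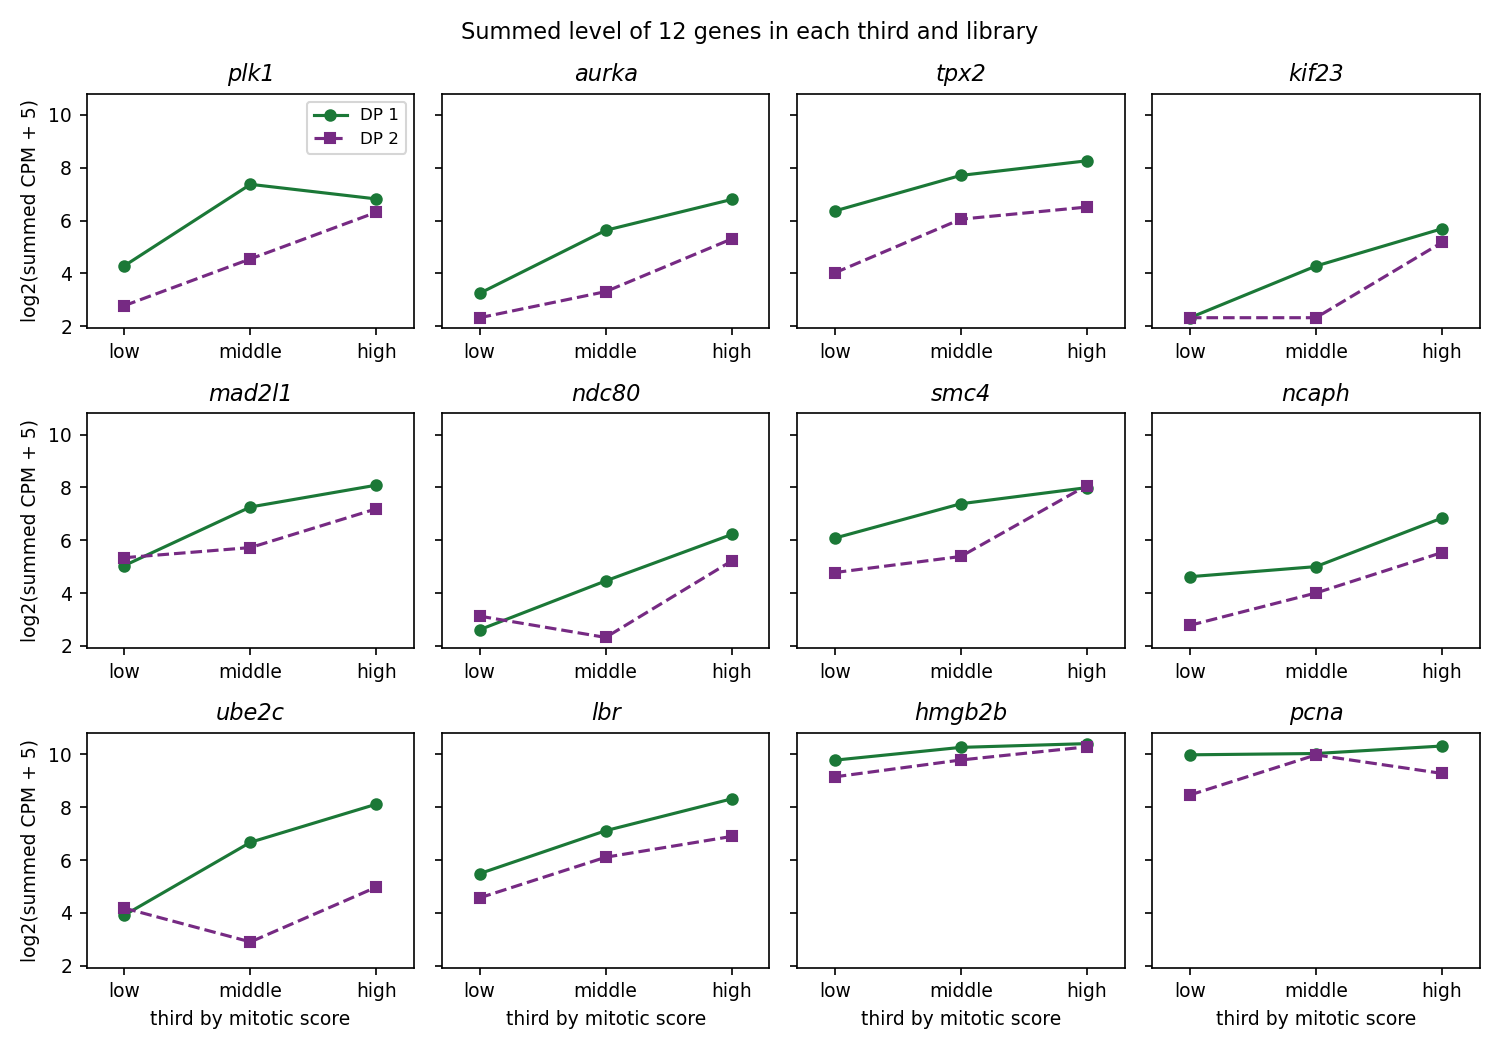
Summed level of 12 genes in the low, middle and high group of each library, as log2(CPM + 5) of the summed counts, with circles for DP 1 and squares for DP 2. plk1, aurka, tpx2, kif23, mad2l1, ndc80, smc4, ncaph, ube2c and lbr are higher in the high than in the low group in both libraries. hmgb2b and pcna are too, and in DP 2 pcna is highest in the middle group.

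Kinetochore and checkpoint genes were higher in both libraries for 22 of 29 members and lower in both for 0, and 11 were 2-fold higher in both. Those higher were 17 and those lower 2 without the cells of another identity. Among cells without a kdrl count 12 were higher and 1 lower, and the median in DP 2 was 0.0. mad2l1, the checkpoint protein that holds the anaphase-promoting complex inactive, was at 28.0, 149 and 267 CPM in DP 1. In DP 2 it was at 35.6, 47.9 and 142 CPM. Its counts were found in 11 of 13 high cells of DP 1 and 5 of 8 of DP 2, and 1 cell gave 84% of them in the DP 2 low group. ndc80, which ties kinetochores to microtubules, was at 1.12, 17.0 and 69.6 CPM in DP 1 and at 3.74, 0 and 32.2 CPM in DP 2. It thus did not climb step by step in DP 2, where the middle group had no count. The fitted differences were 2.84 ± 0.54 for mad2l1 (edgeR unadjusted p = 0.00947) and 5.0 ± 0.96 for ndc80 (edgeR unadjusted p = 0.0114).

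The chromosomal passenger complex is the setting in which aurkb works. Its member cdca8 was at 13.5, 37.6 and 102 CPM in DP 1 and at 0, 34.4 and 63.3 CPM in DP 2. Its member birc5a, named for its role, was at 60.0, 95.7 and 156 CPM in DP 1 and at 13.1, 82.3 and 43.7 CPM in DP 2. In DP 2 the middle group was therefore the highest for birc5a. cenpf, a protein of the outer kinetochore, was at 25.8, 14.4 and 104 CPM in DP 1 and at 0, 11.1 and 16.1 CPM in DP 2. In the DP 2 high group 1 cell gave 93% of the cenpf counts. The fitted differences were 3.18 ± 0.77 for cdca8, 1.39 ± 0.46 for birc5a and 2.07 ± 0.62 for cenpf.

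Condensin and cohesin genes were higher in both libraries for 15 of 19 members and lower in both for 0. They were 11 and 2 without the cells of another identity, and among cells without a kdrl count 10 and 0. Over all 63 cells 4 were 2-fold higher in both, and the median log2 difference was 0.62 in DP 1 and 0.86 in DP 2. smc4, the ATPase core shared by both condensins, was at 62.8, 162 and 250.1 CPM in DP 1 and at 22.5, 36.8 and 265 CPM in DP 2. It was found in 12 of 13 high cells of DP 1 and in all 8 of DP 2, against 7 of 13 and 3 of 8 low cells. Its fitted difference was 2.38 ± 0.50, and it was the only mitosis-list gene called by both DESeq2 and the older quasi-likelihood test. The condensin I subunits ncapd2 and ncaph differed by 2.34 ± 0.50 and 2.60 ± 0.57, and each was found in 6 of 8 high and 1 of 8 low cells of DP 2. The condensin II subunit ncapd3 differed by 2.52 ± 0.97.

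The anaphase-promoting complex had a smaller share of members higher in both libraries than the lists above. Of 17 members 6 were higher in both libraries and 2 lower in both (35.3% and 11.8%, against 24.2% and 20.8% of all genes). At least 2-fold higher in both was 1. The numbers higher and lower were also 6 and 2 without the cells of another identity, and 4 and 5 without the deepest cell of each sum. The median log2 difference of the 17 was 0.21 in DP 1 and 0.80 in DP 2. Its E2 enzyme ube2c, which starts the ubiquitin chains on cyclin B, was at 10.1, 97.0 and 273 CPM in DP 1 and at 13.1, 2.46 and 26.5 CPM in DP 2. All 13 high cells of DP 1 had a ube2c count, and 4 of 8 did in DP 2. Its inhibitor fbxo5 had 1 count in the low groups and 86 in the high groups, a ratio of 56.5 with a counting interval of 9.87 to 2257. The subunit anapc1 differed by 1.19 ± 0.48. The members with an unadjusted edgeR p under 0.05 were this E2 and this inhibitor, 2 of 16 tested, and no subunit of the complex was among them.

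**Figure D4:**
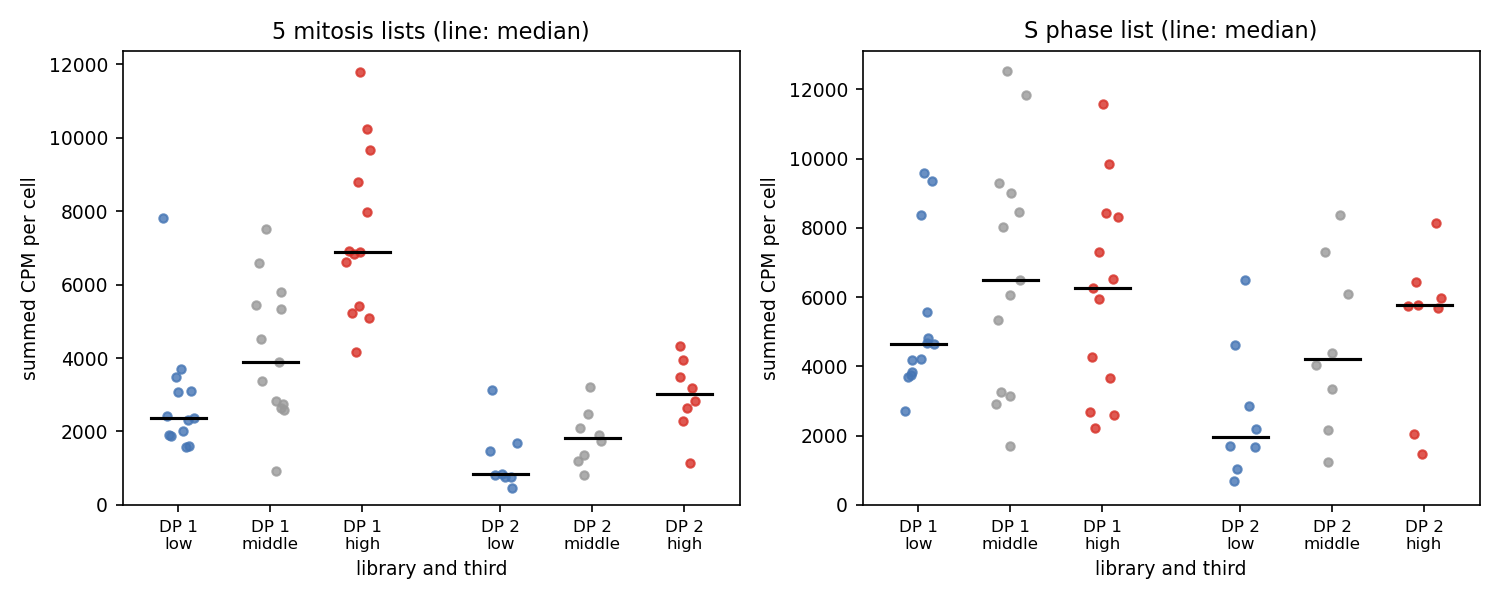
Summed CPM per cell over the 5 mitosis lists (left) and over the S phase list (right), by library and group, with a line at the median. The mitosis medians run from 2361 to 6897 CPM in DP 1 and from 837 to 3016 CPM in DP 2, and the S phase medians from 4643 to 6256 and from 1953 to 5770 CPM.

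DNA replication genes differed in both directions. Of 61 members with 30 counts 21 were higher in both libraries, 10 were lower in both and 3 were 2-fold higher in both. Those higher and lower are 34.4% and 16.4%, against 24.2% and 20.8% of all genes. The split without the cells of another identity gave 17 higher and 9 lower, which is 27.9% and 14.8%, against 22.3% and 16.5% of all genes. Per cell, the S phase list summed to a median of 4643 CPM in the low, 6493 in the middle and 6256 in the high group of DP 1, and to 1953, 4203 and 5770 CPM in DP 2. Its rank correlation with the score was −0.01 over 39 cells in DP 1 and 0.51 over 24 cells in DP 2. The libraries therefore differed in this measure, and no test of that difference was run. Without the cells of another identity the median fitted difference of the list was 0.01, against 0.29 with them. It was 0.32 without the deepest cell of each sum and 0.47 with thinned cells. Among cells without a kdrl count 28 of the 61 were higher in both libraries and 4 lower in both. These are 45.9% and 6.56%, against 21.4% and 13.8% of all genes and 46.8% and 2.7% of the mitosis genes.

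Single replication genes, named for their role, showed no common order. The replication clamp pcna was at 1008, 1043 and 1271 CPM in DP 1 and at 348, 1006 and 617 CPM in DP 2. The helicase subunit mcm5 was at 201, 80.8 and 126 CPM in DP 1 and at 80.5, 107 and 75.9 CPM in DP 2. The ribonucleotide reductase subunit rrm2 was at 75.7, 116 and 132 CPM in DP 1 and at 16.8, 244 and 127 CPM in DP 2. In DP 2 each of the 3 was highest in the middle group. Their fitted differences were 0.54 ± 0.30, −0.52 ± 0.43 and 1.26 ± 0.52. The origin protein orc2 differed by 1.60 ± 0.50 and the single-strand binding subunit rpa2 by 1.15 ± 0.39, while the chromatin assembly subunit chaf1b was lower by −2.36 ± 0.93. Cyclin E2 (ccne2), which acts at the start of S phase, had 3 counts in the low and 57 in the high groups, a ratio of 12.5 (4.06 to 62.3).

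Of 16 transcription factors of the cycle 4 were higher and 1 lower in both libraries, and without the cells of another identity 3 were higher and 4 lower. Over all genes 24.2% were higher and 20.8% lower, and without those cells 22.3% and 16.5%. The share of these factors that was higher was thus near that of all genes. The median log2 difference of the 16 factors was −0.18 in DP 1 and 0.82 in DP 2. foxm1, which drives G2 genes in mammals, had 10 counts in the high groups and 0 in the low ones and is too thinly covered to compare. mybl2b differed by 1.1 ± 0.66 and the repressor e2f8 by 1.48 ± 0.57. The dimer partner tfdp2 was lower, by −1.55 ± 0.56. Genes of cell cycle exit and G1 were higher in both for 4 of 20 members and lower in both for 7, and without the cells of another identity for 1 and 5. The shares of all genes given above are the background of these counts too. The inhibitor cdkn1ca, which blocks cyclin-dependent kinases, had 46 counts in the low groups and 0 in the high ones, at least 23.3-fold higher in the low groups. Those counts came from 2 of 13 cells in DP 1 and 3 of 8 in DP 2.

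Chromatin and nuclear envelope genes come next. The lamin B receptor gene lbr, which holds chromatin at the inner nuclear membrane, was at 39.8, 133 and 314 CPM in DP 1 and at 18.7, 63.9 and 114 CPM in DP 2. Its fitted difference was 2.86 ± 0.46 (edgeR unadjusted p = 0.00493). hmgb2b, a chromatin protein common in dividing cells, was found in every high and low cell. It was at 875, 1226 and 1354 CPM in DP 1 and at 563, 879 and 1244 CPM in DP 2, a difference of 0.86 ± 0.29. The histone variant gene h2ax differed by 1.40 ± 0.56. Of the 24 high mobility group, linker histone and lamina genes 13 were higher and 5 lower in both libraries. These are 54.2% and 20.8%, against 24.2% and 20.8% of all genes. Without the cells of another identity they were 9 and 5 (37.5% and 20.8%, against 22.3% and 16.5% of all genes).

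The linker histone gene h1-10 had a small p, with levels of 472, 699 and 2144 CPM in DP 1 and 174, 89.7 and 757 CPM in DP 2. The fitted difference was 2.15 ± 0.26 (edgeR unadjusted p = 0.00241). It rests on few cells, since 1 cell gave 48% of its counts in the DP 1 high group and 1 gave 76% in that of DP 2. The median per cell was 380 CPM in the low and 258 CPM in the high group of DP 1, and 86.2 and 29.6 CPM in DP 2, so the medians went the other way from the sums. Without the deepest cell of each sum the difference was 1.16. The replication-dependent histone gene hist1h4l was at 26.9, 234 and 210 CPM in DP 1 and at 7.49, 2.46 and 135 CPM in DP 2, and such genes have near-identical copies that can share counts.

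The tubulin list gave opposite directions. tubb4b, a beta tubulin of most cells, was at 1078, 1313 and 1704 CPM in DP 1 and at 681, 1018 and 1088 CPM in DP 2, a difference of 0.66 ± 0.22. The alpha tubulin genes tuba1a and tuba1c, near-identical copies known from neurons, were lower in the high group. tuba1a was at 219, 0.874 and 2.26 CPM in DP 1, where 1 cell gave 99% of the low counts, and at 71.1, 0 and 8.05 CPM in DP 2. tuba1c was at 167, 9.61 and 9.40 CPM in DP 1 and at 22.5, 4.91 and 4.60 CPM in DP 2. In each library the cell with the most tuba1a and tuba1c counts was also the one with the most elavl3 counts, a neural gene described below.

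Nucleolar genes were higher in both libraries for 15 of 31 members and lower in both for 2, which is 48.4% and 6.45%. Leaving out the cells of another identity, 8 were higher and 4 lower, and the 25.8% higher is near the 22.3% of all genes in that split. mybbp1a, which works in ribosomal RNA transcription, differed by 1.55 ± 0.45, and the ribosome assembly factor wdr12 by 1.77 ± 0.56. Of 76 ribosomal protein genes 11 were higher and 26 lower in both (14.5% and 34.2%, against 24.2% and 20.8% of all genes). Without the cells of another identity these were 10 and 21 (13.2% and 27.6%, against 22.3% and 16.5% of all genes). The median fitted difference of the ribosomal protein genes was −0.05 with those cells kept. Of the nuclear import genes 7 of 21 were higher and 3 lower in both (33.3% and 14.3%, against 24.2% and 20.8% of all genes). Without the cells of another identity they were 8 and 4 (38.1% and 19.0%). cse1l, the exporter that returns importin alpha proteins such as kpna2 to the cytoplasm, differed by 1.86 ± 0.48. The nucleoporin gene ahctf1, which rebuilds nuclear pores after mitosis, differed by 2.27 ± 0.55. Mitochondrially encoded genes had fitted differences between 0.08 and 0.71, with a median log2 difference of −0.05 in DP 1 and 0.61 in DP 2. Per cell the list ran from 35229 to 321930 CPM in DP 1, and the cell of DP 2 with the highest score held 208284 CPM. The counts of genes higher or lower in both libraries varied with the setting. Of 13, 5 were higher and 0 lower in both libraries, but without the cells of another identity 2 were higher and 5 lower. Without the deepest cells 10 were higher and 0 lower, and with the log score 0 and 0. Nuclear-encoded respiratory chain genes were split 17 to 17 among 78 (21.8% each, near the 24.2% and 20.8% of all genes). Without the cells of another identity the split was 25 to 14 (32.1% and 17.9%).

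Regulators of blood identity went in both directions. Of 24 members with 30 counts 9 were higher in both libraries and 8 lower in both (37.5% and 33.3%, against 24.2% and 20.8% of all genes). At least 2-fold higher in both were 4 and at least 2-fold lower 3, against 4.79% and 4.33% of all genes. Without the cells of another identity 8 were higher and 3 lower (33.3% and 12.5%, against 22.3% and 16.5% of all genes). With the outer 50% of cells, and also with the log score, 11 were higher and 4 lower. The shares of all genes were 27.4% and 21.4% with the outer 50%, and 26.3% and 19.2% with the log score. Other settings were more even. Without the deepest cell of each sum 7 were higher and 6 lower (24.6% and 18.3% of all genes). With thinned cells these were 6 and 5 (19.3% and 15.1% of all genes). With a score without kpna2 they were 9 and 7 (24.1% and 20.5% of all genes). myb was at 306, 364 and 349 CPM in DP 1 and at 88.0, 165 and 140 CPM in DP 2, a difference of 0.32 ± 0.39 (edgeR adjusted p = 0.817). A p of this size does not show that the level was equal. spi2, whose reporter was sorted on, was at 138, 221 and 206 CPM in DP 1 and at 284, 244 and 525 CPM in DP 2, a difference of 0.72 ± 0.34. The lymphoid and progenitor factor ikzf1 differed by −0.51 ± 0.41. spi1b, the master factor of myeloid cells, was higher in DP 1, at 19.1 and 140 CPM in the low and high groups, and lower in DP 2, at 269 and 21.9 CPM. runx1 and gata2b were carried by at most 3 cells of any group, and their differences were −2.06 ± 0.92 and −0.25 ± 0.75. gfi1aa, on the same list, had 0 counts in the low and 23 in the high groups, at least 5.04-fold higher. It was found in 14 of the 63 cells.

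The other blood genes with the smallest p were 3 early blood factors with higher levels and 1 leukocyte gene with lower levels in the high groups. znfl2a, a zinc finger gene of early blood in zebrafish, was at 76.3, 170 and 686 CPM in DP 1 and at 41.2, 103 and 152 CPM in DP 2. In the DP 1 high group 1 cell gave 74% of its counts. drl, a zinc finger gene of zebrafish lateral mesoderm and early blood, was at 40.9, 154 and 158 CPM in DP 1 and at 39.3, 107 and 102 CPM in DP 2, level between the middle and high groups. tal1, the factor that starts the blood programme, was at 2.24, 5.24 and 77.5 CPM in DP 1 and at 0, 0 and 10.4 CPM in DP 2. ptprc, which encodes the leukocyte surface phosphatase CD45, was at 37.6, 38.0 and 8.65 CPM in DP 1 and at 31.8, 6.14 and 8.05 CPM in DP 2. The fitted differences were 2.82 ± 0.49 for znfl2a, 1.75 ± 0.47 for drl, 5.05 ± 0.96 for tal1 and −2.10 ± 0.54 for ptprc.

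Myeloid genes are among those that cells of another identity carry. Of 12 neutrophil genes 2 were higher and 6 lower in both libraries, and of 11 macrophage and pan-myeloid genes 0 were higher and 5 lower in both. Over all genes 24.2% were higher and 20.8% lower. The split without the cells of another identity had 3 higher and 3 lower neutrophil genes and 2 higher and 2 lower macrophage genes. In that split 22.3% of all genes were higher and 16.5% lower. With thinned cells 1 neutrophil gene was higher and 2 lower, and 1 macrophage gene was higher and 1 lower. The shares of all genes were then 19.3% and 15.1%. A limit on lyz, a gene of the neutrophil list, was among those that chose the cells left out. The cytokine gene il1b was at 271, 39.3 and 13.9 CPM in DP 1 and at 258, 13.5 and 34.5 CPM in DP 2, a difference of −3.73 ± 0.54. In the low groups 1 cell gave 90% of its counts in DP 1 and 1 gave 83% in DP 2. cebpd, a myeloid and inflammatory transcription factor, was at 26.9 and 1.13 CPM in the low and high groups of DP 1 and at 522 and 5.75 CPM in DP 2, where 1 cell gave 99%. laptm5, a lysosomal protein of leukocytes, differed by −1.39 ± 0.51 and the actin bundler lcp1 by −1.53 ± 0.58. Without the cells of another identity il1b differed by −4.38.

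lyz, the lysozyme gene of myeloid cells, was one of the limits that chose those cells. It was at 198, 790 and 165 CPM in DP 1 and at 5392, 67.6 and 160 CPM in DP 2. Its fitted difference was −2.61 ± 1.48, and it was −0.32 in DP 1 alone and −5.01 in DP 2 alone. Without the cells of another identity it was −0.31, and this change follows in part from the limit on lyz that chose them. Per cell, the neutrophil list reached 15564 and 36932 CPM in 2 cells of the DP 2 low group, and no other cell passed 6691 CPM. Of the 16 listed neutrophil genes that the table holds, 13 had a count in the DP 2 low group and 14 in its high group, with csf3r at 0 in both.

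The inflammatory feedback gene socs3a, an inhibitor of cytokine signalling, was spread over more cells. It was at 602, 355 and 161 CPM in DP 1 and at 1462, 511 and 442 CPM in DP 2, a difference of −1.82 ± 0.27 (edgeR unadjusted p = 0.00464). All 8 low cells of DP 2 and 12 of 13 of DP 1 had a count, with medians per cell of 822 CPM in the low and 41.1 in the high group of DP 1, and 503 and 184 CPM in DP 2. Without the cells of another identity its difference was −2.33. gpr183a, a chemotaxis receptor that guides blood progenitors in zebrafish, was at 118, 208 and 35.7 CPM in DP 1 and at 110.4, 214 and 2.3 CPM in DP 2. It was therefore highest in the middle groups and lowest in the high groups, and its difference was −2.32 ± 0.74.

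Of 16 endothelial genes with 30 counts 0 were higher and 8 lower in both libraries, and of 6 neural genes 0 were higher and 3 lower in both. Over all genes 24.2% were higher and 20.8% lower, against 0.0% and 50.0% of each list. The split without the cells of another identity gave 2 and 3 for the endothelial genes (12.5% and 18.8%, against 22.3% and 16.5% of all genes). For the neural genes it gave 0 and 0. Both lists were among the limits that chose the cells left out, so this change follows in part from that choice. Among cells without a kdrl count 2 endothelial genes were higher and 2 lower. The Notch ligand dll4 of arterial cells was at 8.97, 0 and 0.376 CPM in DP 1 and at 76.7, 2.46 and 3.45 CPM in DP 2. sox7, an endothelial transcription factor, was at 30.8, 7.43 and 0 CPM in DP 1 and at 268, 71.2 and 40.3 CPM in DP 2. The neuronal RNA-binding gene elavl3 was at 92.5 CPM in the low group of DP 1 and 114 CPM in that of DP 2, each time from a single cell. It had 226 counts in the low and 3 in the high groups, a ratio of 115. Its counting interval of 38.7 to 560.2 leaves out the spread between cells, on which this ratio rests.

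Summed per cell, the endothelial list ran from 0 to 2999 CPM in the low group and from 0 to 1399 CPM in the high group of DP 1. In DP 2 it ran from 0 to 4577 CPM and from 24.9 to 864 CPM. The neural list ran from 0 to 1416 and from 0 to 178 CPM in DP 1, and from 0 to 1834 and from 0 to 259 CPM in DP 2. Of 32 endothelial genes in the table, 17 had a count in the low and 16 in the high group of DP 1, and 20 and 17 in DP 2. cdh5 was at 0 by the choice of cells, and kdr and flt1 were at 0 in all 4 sums. Of 15 neural genes 10 and 3 had a count in DP 1, and 8 and 6 in DP 2, with elavl4 at 0 in both sums of DP 2. No test was run of the part of these cells in the lower levels, and the counts of the split without them stand above.

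**Figure D5:**
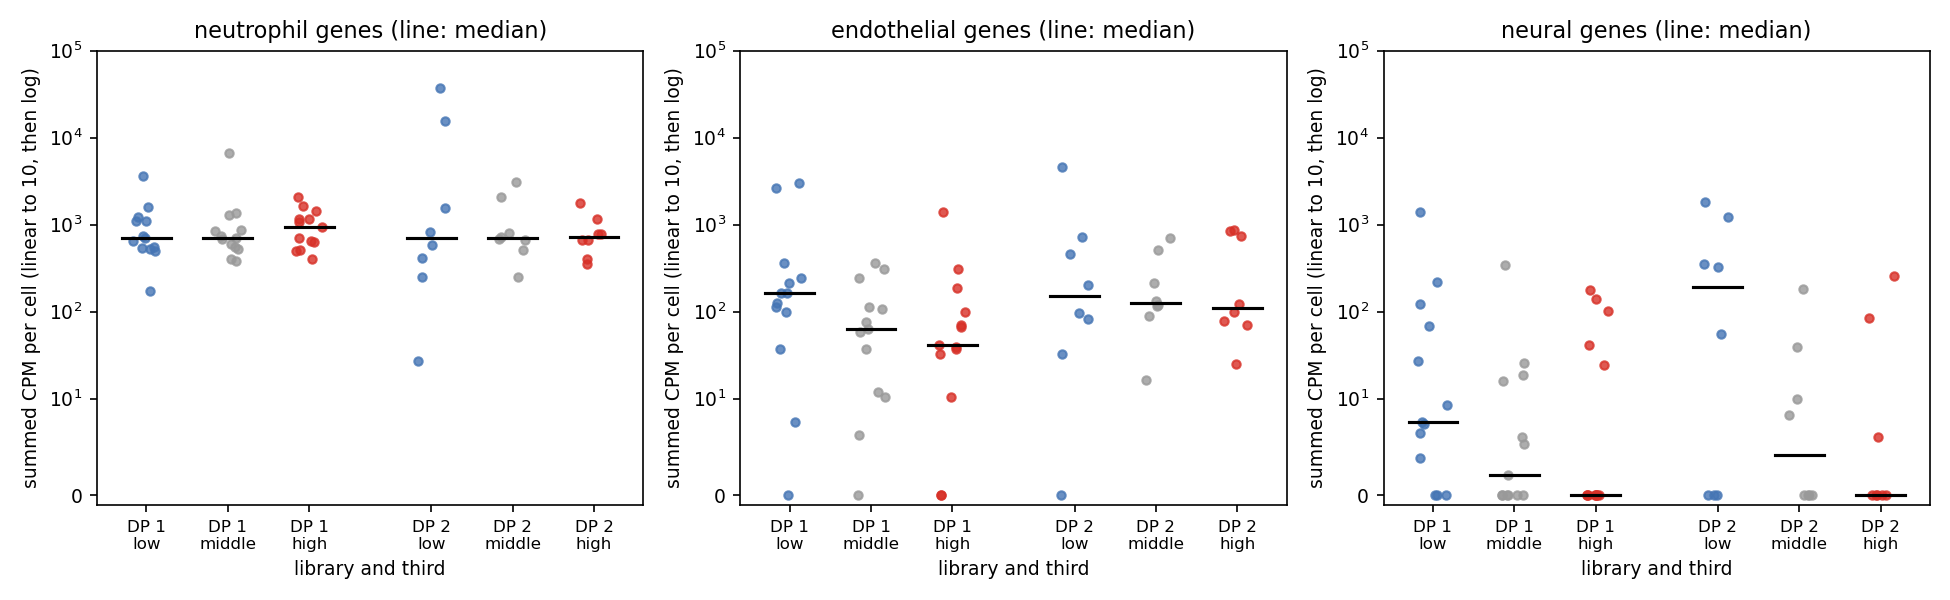
Summed CPM per cell over the neutrophil, endothelial and neural lists, by library and group, on an axis that is linear to 10 CPM and logarithmic above, with a line at the median. The highest cells sit in the low groups for the endothelial and neural lists, with 4577 and 1834 CPM in DP 2, and 2 neutrophil-list cells of the DP 2 low group reach 15564 and 36932 CPM.

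The 10 genes with the smallest p in each direction mostly rest on few cells. Higher in the high group were nrde2, h1-10, zmp:0000000634, tcima, pms1, slc30a6, camk1b, wdr45b, armc1l and nob1. Of these, wdr45b, an autophagy gene, was found in 8 of 13 high cells of DP 1 and 4 of 8 of DP 2, and differed by 2.62 ± 0.50. armc1l was found in 9 of 13 and 6 of 8 high cells, at 16.8, 75.6 and 177 CPM in DP 1 and at 0, 28.3 and 64.4 CPM in DP 2, and differed by 3.55 ± 0.70. nob1, a nuclease that matures the small ribosomal subunit, differed by 3.13 ± 0.57, and nrde2, a nuclear RNA factor, by 4.80 ± 0.71. The mismatch repair gene pms1 had 3 counts in the low and 158 in the high groups, a ratio of 34.6 (11.6 to 170), and 1 cell gave 94% of its high counts in DP 2. tcima, slc30a6, camk1b and zmp:0000000634 differed by 3.59, 3.50, 3.62 and 3.99.

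Lower in the high group were fabp11a, cebpd, rnf185, sybl1, zbtb16a, clic4, fstl1b, tuba1c, fam43a and il1b. The fatty acid binding gene fabp11a was at 28.6, 2.62 and 1.13 CPM in DP 1 and at 393, 30.7 and 5.75 CPM in DP 2, and 1 cell gave 98% of its low counts in DP 2. Its difference was −5.59 ± 0.69 (edgeR unadjusted p = 0.000783, adjusted p = 0.552). The ubiquitin ligase gene rnf185 was at 28.6, 29.3 and 1.13 CPM in DP 1 and at 44.9, 54.1 and 2.3 CPM in DP 2, so that it was low in the high group alone. sybl1, fstl1b and fam43a differed by −4.69, −4.08 and −3.89. zbtb16a had 72 counts in the low and 3 in the high groups, a ratio of 36.5 (12.01 to 181), and clic4 had 76 and 3, a ratio of 38.6 (12.7 to 191).

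The 20 genes that both DESeq2 and the older quasi-likelihood test called were 8 higher and 12 lower. The higher ones were h1-10, smc4, znfl2a, hist1h4l, pmp22b, armc1l, CABZ01058261.1 and LOC100330864. pmp22b, a tetraspan membrane protein gene, was at 343, 545 and 971 CPM in DP 1 and at 185, 604 and 589 CPM in DP 2, and was found in all 13 high and all 13 low cells of DP 1. The lower ones were cebpd, fabp11a, il1b, socs3a, elavl3, tuba1a, sox7, cbx7a, her6, ctdsp2, draxin and si:ch1073-429i10.1. The Notch target her6 was at 288, 76.4 and 2.63 CPM in DP 1 and at 202, 90.9 and 100.1 CPM in DP 2. cbx7a, a Polycomb reader, was at 89.7, 13.5 and 10.1 CPM in DP 1 and at 528, 354 and 204 CPM in DP 2. ctdsp2 and draxin had 0 counts in the high groups and were at least 38.6-fold and at least 51.3-fold higher in the low ones.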

How the data were processed

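The values are raw counts as the authors deposited them, whole numbers for 19831 genes in 93 cells. Per the submitters' processing notes, which cover several assays, the tools were Trimmomatic 0.36 and HISAT2 2.1.0 on GRCz11. Counting tool, collapsing of molecules and strand use: not given in the sources used here. Hence overlapping or near-identical genes may share counts. Doublets were not called. The cells were sorted one by one, and whether a well held more than a single cell was not checked. All cell groups, members and gene lists were chosen with earlier results of these data known. CPM is counts per 1000000 counts of a cell or of a sum.

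Counts were summed per library and score group, without the 6 scoring genes, and fitted with edgeR 4.0.16 (R 4.3.3), TMM scaling and filterByExpr with the score group as factor. The test was the two-sided quasi-likelihood F test, called at a Benjamini-Hochberg adjusted p under 0.05. The high and low sums of a library come from that library, so the library was the block. Each SE is the absolute log2 difference divided by the square root of F. DESeq2 1.42.0 was an alternative, and its adjusted p was NA for 1779 genes. Steps were tested on simulated data. Differences in each library are of log2(CPM + 5). Genes with 0 counts in a score group are given against a floor of 3 counts over both libraries. Ratios are given with exact binomial intervals at 95%, which cover counting error at most. These intervals treat each count as independent and leave out the spread between cells and libraries. As collapsing of molecules is not known, they may be too narrow for counting error too.

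Genes were named by rule. With 0 calls these were the 10 smallest p in each direction and up to 4 further members of each list by smallest p. To these came myb, spi2, kdrl, runx1, gata2b, gfi1aa, spi1b and ikzf1, and of kdrl only the number of cells with a count is given. Genes called by other tests, and those said to be named for their role, were added after the values were seen. So were the set with 30 or more counts, the 2-fold rule and the split without cells of another identity. A search for promoter motifs was planned and was not run, as no promoter sequences were used here.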

Additional observations from a re-analysis of the deposited data

How the results depend on the processing

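The count of 0 genes called in each direction by edgeR held under DESeq2-type size factors, no filter, no replicate block, robust shrinkage, the outer 50% or 25% of cells, thinned cells, sums without their deepest cell, a log score, a score without kpna2, cdh5 and npsn cells kept, cells without kdrl, and cells with myb and no other identity. DESeq2 called 10 higher and 17 lower, and the older quasi-likelihood test 9 and 13; the cause was not tested. Leaving out a library leaves no residual degrees of freedom, so it gives values and no calls. The median fitted difference over the 88 tested mitosis genes was 1.16, between 0.82 and 1.58 under the settings with both libraries (1.13 without the replicate block), and from 1.09 to 2.15 with one library left out, the latter in DP 2 alone. The block changed no call.

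Of 1353 values for 86 genes, 24 changed sign, and none of these genes passed the threshold in edgeR; the cause was not tested. By setting, gata2b and spi1b were at 1.3 and −0.35 in DESeq2 and at 0.76 and −0.32 in the older test, and spi1b was at −0.85 without the replicate block. With the outer 50% of cells spi1b was at −1.67, and with the outer 25% mcm5, tuba1c and spi2 were at 0.50, 0.24 and −0.083. Thinned cells put spi1b at −0.54, and sums without their deepest cell put spi2 at −0.079. The log score put e2f8 at −0.072 and runx1 at 1.17. With cdh5 and npsn cells kept, ahctf1, gata2b, spi1b and tcima were at −0.48, 0.0060, −1.53 and −0.58. Without kdrl cells mcm5 and gata2b were at 0.13 and 7.29. In cells with myb and no other identity pcna, spi2 and gata2b were at −0.20, −0.19 and 1.38. With one library left out gata2b ran from −2.82 to 3.39 and spi1b from −3.50 to 2.73.

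Depth limits this comparison. In the split of all 63 cells each sum rests on 8 or 13 cells, and the deepest cell gave 20.5% to 38.4% of a sum. Many genes were found in a few of these cells. Splits of fewer cells rest on fewer, with 15 low cells over both libraries without the cells of another identity and 14 without kdrl cells. Absence of a call therefore does not show that a gene was level.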
